A study of Mus musculus with 8 samples.

Results

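The mitochondrial ribosomal protein genes were taken as the protein-coding genes whose GENCODE M21 symbol starts with Mrpl or Mrps followed by a number, and 78 of the 54532 genes in the count table met this rule. Of these, 49 carry the Mrpl symbol of the large subunit and 29 the Mrps symbol of the small subunit. They were followed in bulk RNA-seq of frozen prostates from 8 male NOD mice, an inbred strain that develops autoimmune inflammation. The control group of 4 mice (animals 1, 3, 65 and 69) received the vehicle PBS, and the etanercept-treated group of 4 mice (animals 17, 19, 50 and 52) received 4 mg/kg of etanercept, a TNF receptor fused to an antibody tail that captures TNF. Both groups were injected 2 times per week over 5 weeks, and tissue was taken at 30 weeks of age. The comparison asks which transcripts differ in the prostate when TNF is blocked.

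Mitochondria hold their own ribosome, which makes the small set of respiratory chain and ATP synthase proteins that mitochondrial DNA encodes. Its small subunit reads the mitochondrial mRNA, and its large subunit joins the amino acids and delivers the new protein to the inner membrane. All of its proteins are encoded in the nucleus, made in the cytosol and imported. Part of them have counterparts in bacterial ribosomes, and the others were acquired in the mitochondrial lineage. Secretory and muscle cells of the prostate both depend on this machinery for oxidative phosphorylation.

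The total count was between 13760669 and 25178942 per mouse. Summed over 6 genes of prostate luminal cells, among them Pbsn and Krt8, expression was 4078 to 14714 counts scaled to a common library size (CPM) in control mice and 4705 to 18554 CPM in etanercept-treated mice, so that all 8 samples carried the markers of the labelled tissue. In 3 mice, control 69 and etanercept 19 and 50, the secretory gene Sbp held more of the counts than in the others, within a range of 0.157% to 20.7% over all mice. Etanercept 17 stood apart through 5 seminal vesicle genes, at 87861 CPM against at most 3566 CPM elsewhere. Control 3 stood apart through fast skeletal muscle genes, with the myosin gene Myh4 at 353 CPM against at most 1.27 CPM elsewhere, and it had the highest summed level of adipocyte, T cell, B cell, macrophage and endothelial markers. Counts given without these mice stand beside the results below.

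Mitochondrial ribosomal protein mRNA was lower on average in the etanercept-treated prostates, by a small amount that did not reach the threshold for any gene in the main test. The mean of log2(CPM + 1) over the 77 genes tested was 5.29, 5.09, 5.26 and 5.06 in control 1, 3, 65 and 69, and 4.92, 4.95, 4.97 and 4.91 in etanercept 17, 19, 50 and 52. Every etanercept-treated mouse thus lay below every control mouse, and the control mice were spread more widely (SD 0.12 against 0.025, n = 4 per group). The genes together took 0.263% to 0.376% of the counts in control mice and 0.244% to 0.256% in etanercept-treated mice. In bulk tissue, fewer cells of a type and less RNA per cell cannot be told apart.

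In edgeR's quasi-likelihood test, 0 of the 77 genes passed an adjusted p of 0.05 (Benjamini-Hochberg), as did 0% of all 15472 genes tested, and the smallest adjusted p was 0.739. Before adjustment, 10 of the 77 genes (13.0%) had a p of 0.05 or below and were lower with etanercept, against 3.63% of all genes tested. Genes inside this unadjusted threshold are called nominally lower or higher in what follows. Nominally higher were 0 of the 77 genes, against 2.99% of all genes. The log2 fold change was below 0 in 67 of the 77 genes (87.0%), against 51% of all genes, and its median was -0.26 against -0.0099 over all genes. The quartiles of the family were -0.41 and -0.11, and single genes ran from -0.97 to 0.65. Under the alternative settings tried, between 60 and 72 of the 77 genes were below 0. The 60 came with the trend of each library with exon length removed, where the median over all genes was -0.027. The 72 came with library size alone, where that median was -0.094. The genes were measured in the same 8 mice and are not independent of each other.

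The large and the small subunit gave similar values. Mean log2(CPM + 1) over the 48 large subunit genes was 5.37, 5.19, 5.38 and 5.16 in the control mice and 5.06, 5.05, 5.05 and 4.95 in the etanercept-treated mice. Over the 29 small subunit genes it was 5.15, 4.92, 5.08 and 4.89 in control mice and 4.69, 4.79, 4.82 and 4.85 in etanercept-treated mice. In both subunits the groups did not overlap. The median log2 fold change was -0.27 for the large subunit, with 42 of 48 genes below 0 and 7 nominally lower. It was -0.24 for the small subunit, with 25 of 29 genes below 0 and 3 nominally lower.

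The balance between the subunits differed by less than the spread between mice. Large minus small, as the difference of the mean log2 levels, was 0.26 ± 0.032 in control mice and 0.24 ± 0.11 in etanercept-treated mice (SD, n = 4 per group). The control mice lay between 0.22 and 0.29, whereas the etanercept-treated mice reached from 0.10 in etanercept 52 to 0.37 in etanercept 17. Etanercept 52 had the lowest large subunit level of all mice and etanercept 17 the lowest small subunit level. The ratio of the summed CPM of large to small subunit genes was 1.87 to 1.94 in control mice and 1.72 to 2.08 in etanercept-treated mice. Assigning genes by their place in the ribosome instead of by symbol, with Mrps18a and Mrps30 in the large subunit, gave medians of -0.26 and -0.24. Mrps36, since found in the oxoglutarate dehydrogenase complex and not in structures of the mammalian ribosome, was kept in the small subunit by its symbol.

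**Figure D1:**
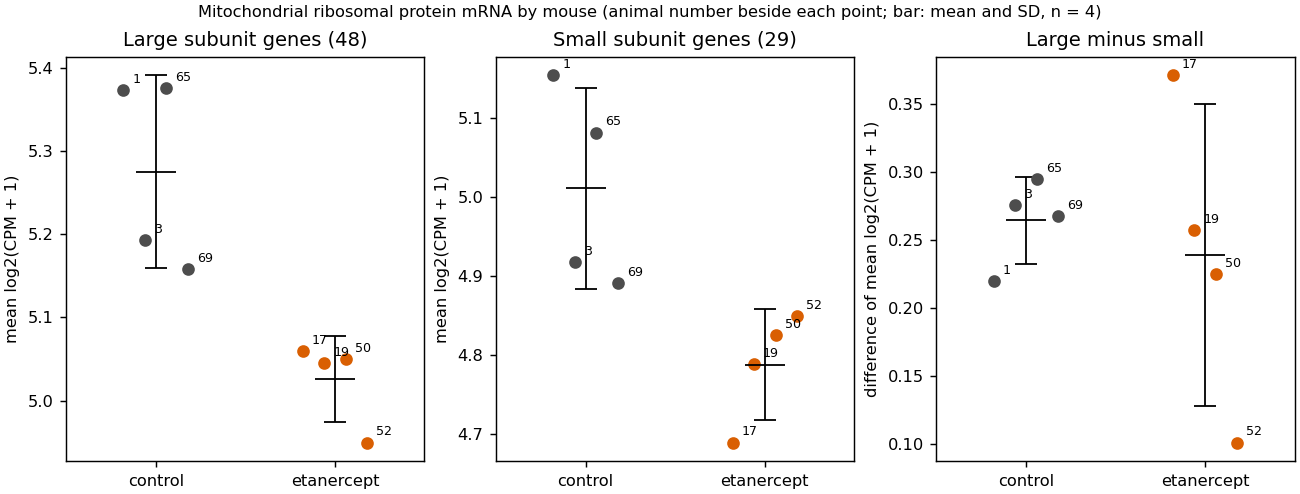
Mean log2(CPM + 1) of the large subunit genes (left) and small subunit genes (middle) and their difference (right), 1 point per mouse with its animal number, bars showing mean and SD of 4 mice. The etanercept-treated mice lie below all control mice in both subunits, while the differences overlap, from 0.10 to 0.37 with etanercept and from 0.22 to 0.29 in control mice.

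Genes of either origin had similar medians. The 48 tested genes with a bacterial counterpart had a median log2 fold change of -0.26, and 39 of them were below 0. The 29 tested genes found only in mitochondria had the same median of -0.26 to 2 decimals, and 28 of them were below 0. The 1 exception among the latter was Mrps31, a small subunit protein.

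Groups that did not overlap were seen for 7 genes that were lower with etanercept (9.09% of the 77, against 2.53% of all genes tested). These were Mrpl52, Mrps11, Mrpl4, Mrpl28, Mrpl51, Mrps7 and Mrpl32. In the other direction there was 1 gene, Mrps18b, where 2.41% of all genes did so. The counts at this level depend on single mice, and in particular 17 genes were nominally lower without control 69, where the share of all genes lower rose to 5.98% as well. Without all 3 mice rich in Sbp, 8 genes were nominally lower (4.43% of all genes). Without etanercept 17, 13 were (3.95% of all genes), and without control 3, 12 were (3.03% of all genes).

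**Figure D2:**
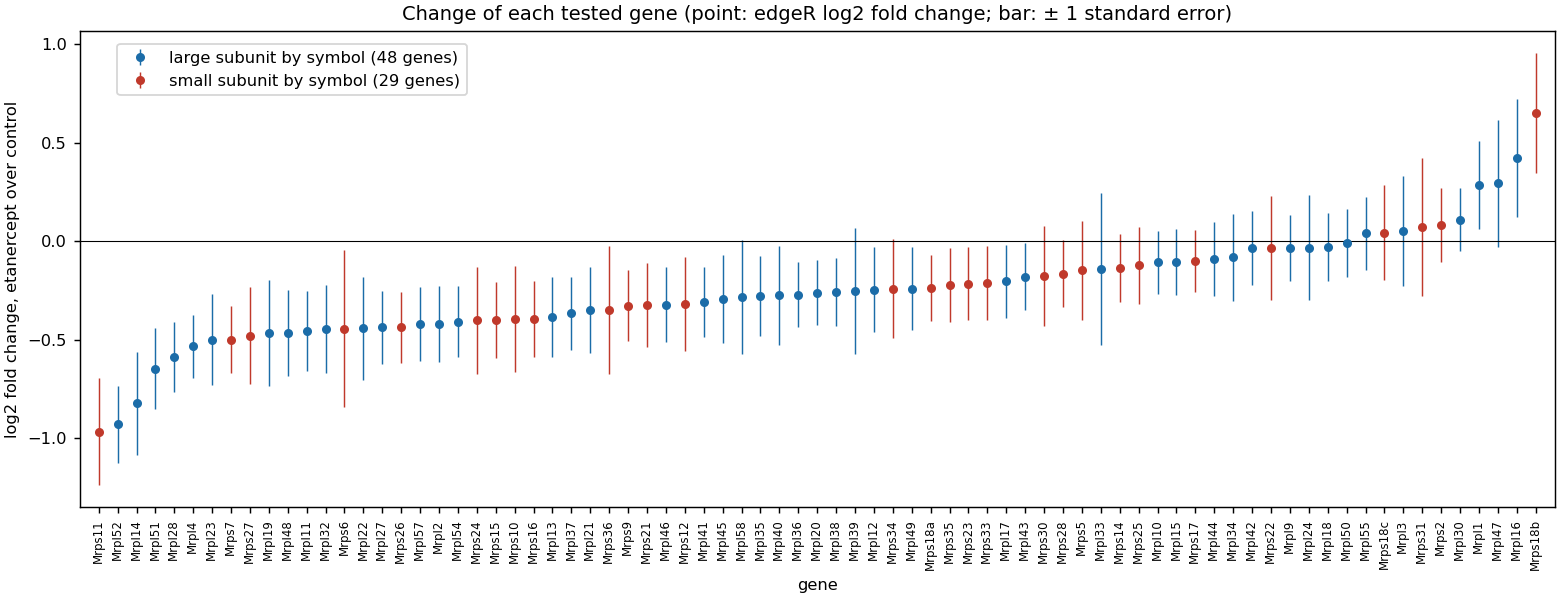
edgeR log2 fold change (etanercept over control, vertical axis) of each of the 77 genes tested, ordered from lowest to highest, with bars of 1 standard error; blue marks large and red small subunit genes. The points run from -0.97 for Mrps11 to 0.65 for Mrps18b, 67 of them lie below 0, and both colours are mixed along the order.

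Mrpl52 encodes a large subunit protein found only in mitochondria, and lies at chr14:54426909-54429756 on the plus strand of GRCm38. It was at 113, 84.0, 98.6 and 64.0 CPM in control 1, 3, 65 and 69 and at 45.4, 42.2, 46.4 and 55.2 CPM in etanercept 17, 19, 50 and 52. All control mice exceeded all etanercept-treated mice, with control 69 nearest to them. The log2 fold change was -0.93 (SE 0.20), with an adjusted p of 0.739 in edgeR. DESeq2, the tool of the study's methods, gave -0.94 (SE 0.23) and an adjusted p of 0.0490, and this was the 1 mitochondrial ribosomal protein gene it called, where it called 0.115% of all genes that it adjusted. Leaving out any 1 mouse other than control 69 gave a DESeq2 adjusted p between 0.123 and 0.399 for Mrpl52, with 0 genes of the family called. Leaving out control 69 gave 0.000468, and Mrps11 was then called too, with 2.17% of all genes that DESeq2 adjusted.

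Mrps11, a small subunit protein of the platform next to the decoding site, had the lowest log2 fold change, -0.97 (SE 0.27). Its levels were 28.2, 23.3, 17.3 and 14.1 CPM in control mice and 9.96, 9.04, 13.1 and 10.4 CPM in etanercept-treated mice, again in the order of animals given above. The groups were separate, but by a gap of only about 1 CPM between control 69 and etanercept 50. Mrps11 (chr7:78783119-78792989, plus strand) starts head to head with Mrpl46 (chr7:78775236-78783531, minus strand), a large subunit gene, and their annotated exons overlap by 173 bases. Mrpl46 was at 25.2, 26.7, 26.1 and 28.1 CPM in control mice and at 25.7, 24.0, 16.8 and 18.5 CPM in etanercept-treated mice, so that its groups overlapped, with a log2 fold change of -0.32 (SE 0.19). The counting did not use strand, and reads in the shared stretch cannot be assigned to either gene. Of the 77 genes tested, 32 have such an exon overlap with another annotated gene and 45 have none, and the median log2 fold change was -0.26 in both sets. Nominally lower were 6 of the 32 (18.8%) and 4 of the 45 (8.89%), against 3.63% of all genes tested. The 6 were Mrps11, Mrps7, Mrpl51, Mrpl14, Mrpl27 and Mrps26. The part of the overlap in their values was not tested.

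Mrpl4 and Mrpl28 are large subunit proteins with bacterial counterparts, the former lining the tunnel through which the new protein leaves. Mrpl4 was at 61.4, 62.4, 54.9 and 61.5 CPM in control mice and at 36.2, 44.5, 49.4 and 35.9 CPM in etanercept-treated mice (log2 fold change -0.53, SE 0.16). Mrpl28 was at 47.8, 48.1, 65.4 and 47.5 CPM in control mice and at 35.5, 35.1, 40.3 and 28.2 CPM in etanercept-treated mice (log2 fold change -0.59, SE 0.18). In neither gene did the groups overlap. Mrpl51, a mitochondria-specific large subunit protein, was at 114, 65.01, 105 and 74.1 CPM in control mice and at 63.7, 58.8, 57.2 and 49.1 CPM in etanercept-treated mice (-0.65, SE 0.20). Here control 3 and etanercept 17 came close to each other.

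Mrps7, which sits in the head of the small subunit, was at 62.5, 42.1, 60.6 and 51.7 CPM in control mice. It was at 36.8, 41.3, 34.1 and 41.4 CPM in etanercept-treated mice (-0.50, SE 0.17), with control 3 just above the highest of them. It was not nominally lower without etanercept 50 (-0.44, SE 0.20) or without the 3 mice rich in Sbp (-0.49, SE 0.25). Mrpl32, a large subunit protein that is cleaved by the m-AAA protease after import, was at 24.6, 24.3, 20.6 and 26.4 CPM in control mice and at 11.6, 18.6, 20.1 and 20.0 CPM in etanercept-treated mice. Its groups did not overlap, though with a log2 fold change of -0.45 (SE 0.22) it was not nominally lower. The remaining nominally lower genes had overlapping groups, namely Mrpl14 at -0.82 (SE 0.26), Mrps26 at -0.44 (SE 0.18), Mrpl27 at -0.44 (SE 0.18) and Mrpl54 at -0.41 (SE 0.18). Mrpl14, a protein of the face where the subunits join, was at 69.8, 30.8, 62.8 and 45.6 CPM in control mice and at 28.6, 36.9, 26.1 and 26.6 CPM in etanercept-treated mice, where control 3 lay below etanercept 19. With the trend of each library with GC content removed, Mrpl54 was at -0.22 (SE 0.16) and not nominally lower, and with that with exon length removed Mrpl14 was at -0.54 (SE 0.25), Mrpl27 at -0.20 (SE 0.20) and Mrpl54 at -0.14 (SE 0.15), none of the 3 nominally lower. Of 20 alternatives, which change the filter, scaling or test or leave out mice, Mrps26 was nominally lower under 13, Mrpl27 under 11 and Mrpl54 under 10.

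**Figure D3:**
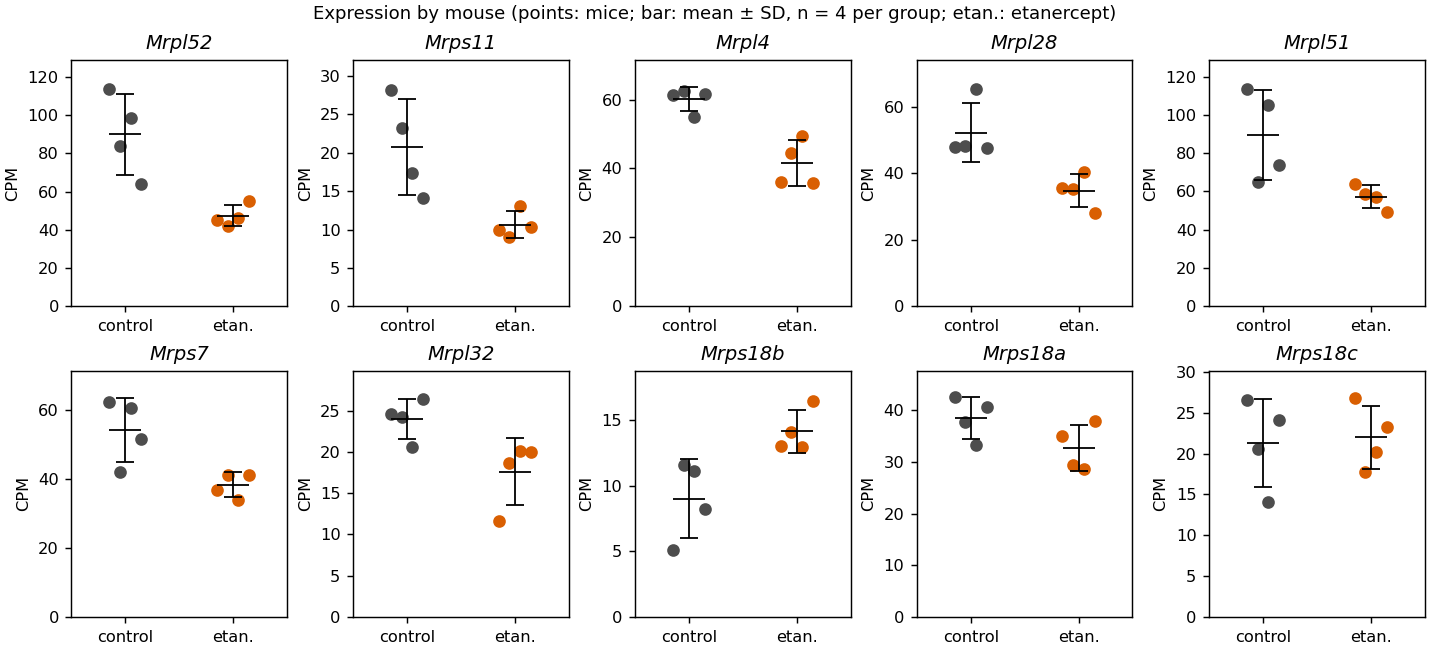
CPM (vertical axis, from 0) of 10 genes in each mouse, as points, with mean and SD of 4 mice per group; etan. stands for etanercept. Mrpl52, Mrps11, Mrpl4, Mrpl28, Mrpl51, Mrps7 and Mrpl32 are lower in all etanercept-treated mice, Mrps18b is higher in all of them (12.9 to 16.5 against 5.10 to 11.6 CPM), and Mrps18a and Mrps18c overlap.

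The 3 paralogs related to bacterial protein S18 gave unlike values. Mrps18b, in the small subunit, was at 5.10, 11.6, 11.1 and 8.22 CPM in control mice and at 13.0, 14.1, 12.9 and 16.5 CPM in etanercept-treated mice. It was the 1 gene whose etanercept-treated mice all exceeded the control mice, and with a log2 fold change of 0.65 (SE 0.30) it was not nominally higher. With the trend of each library with exon length or GC content removed, 2.17% and 1.81% of all genes were nominally higher. In the family, 1 gene was nominally higher under either setting, and this was Mrps18b. Its exons overlap those of the antisense gene Gm16279 by 638 bases, so that reads from the other strand may be counted or lost. Mrps18c, which holds the place of S18 in the small subunit, was at 26.5, 20.6, 14.1 and 24.1 CPM in control mice and at 26.8, 17.8, 20.2 and 23.2 CPM in etanercept-treated mice (0.044, SE 0.24), with no order between the groups. Mrps18a, part of the large subunit despite its symbol, was at 42.6, 37.7, 33.3 and 40.7 CPM in control mice and at 35.004, 29.5, 28.6 and 38.0 CPM in etanercept-treated mice (-0.24, SE 0.17). Its groups overlapped as well.

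For genes of known place or role the values moved with single mice. The stalk that recruits translation factors is built from Mrpl10 at -0.11 (SE 0.16) and Mrpl12 at -0.24 (SE 0.22), and Mrpl11 at its base was at -0.45 (SE 0.20). Mrps12, the protein of the decoding centre, was at -0.32 (SE 0.24). Mrpl58, a peptidyl-tRNA hydrolase that became a ribosomal protein, was at -0.28 (SE 0.29), and Mrpl45, which contacts the inner membrane at the tunnel exit, at -0.29 (SE 0.22). Mrpl44, with the fold of an RNase III, stood at -0.090 (SE 0.19), and Mrps30, a large subunit protein by structure, at -0.18 (SE 0.25). None of these 8 genes was nominally lower or higher in the edgeR fit of all mice. With 1 mouse left out, Mrpl58 ran from -0.64 (without etanercept 17) to -0.15 (without etanercept 19), Mrpl45 from -0.51 to -0.20 without the same mice, and Mrps12 from -0.50 (without control 1) to -0.13 (without control 65). Mrpl12 ran from -0.33 to -0.070 (without control 65), Mrps30 from -0.36 (without etanercept 52) to -0.048 (without control 3), Mrpl11 from -0.58 to -0.34, Mrpl10 from -0.18 to -0.022 and Mrpl44 from -0.15 to 0.024.

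Above 0 were 10 genes, and Mrps18b stood first among them. Mrpl16 (0.42, SE 0.30), Mrpl47 (0.30, SE 0.32) and Mrpl1 (0.29, SE 0.22) came next, the last a protein of the stalk that handles the leaving tRNA. The other 6 were Mrpl30, Mrps2, Mrps31, Mrpl3, Mrps18c and Mrpl55, all at or below 0.11. The standard errors of all but Mrps18b, Mrpl16 and Mrpl1 were larger than their log2 fold changes.

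Transcript levels within the ribosome differed far more than the groups did. Per kilobase of exon (FPKM, from CPM and the union of annotated exons), the mean over 8 mice ran from 2.01 for Mrps10 to 79.9 for Mrps21, with a median of 14.2 over the 77 genes. The highest small subunit genes were Mrps21, Mrps12 (55.3 FPKM) and Mrps28 (53.1 FPKM), and the lowest were Mrps10 and Mrps22 (2.29 FPKM). In the large subunit Mrpl54 (73.2 FPKM), Mrpl34 (69.1 FPKM) and Mrpl52 (61.9 FPKM) were highest, and Mrpl19 (2.73 FPKM) and Mrpl47 (2.78 FPKM) lowest. Genes with long annotated exons that are little used have low FPKM by this measure. Each tested gene had between 107 and 3145 counts in any mouse. The spread between mice of a group, which includes counting error, had a median coefficient of variation of 17.98% in control and 16.3% in etanercept-treated mice.

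Mrpl53 (chr6:83109040-83109939, plus strand), a large subunit gene, was the 1 gene not tested. It had 0 counts in all 8 mice, which allows up to 3 counts per mouse, or 0.108 to 0.211 CPM on the scale of the other values. Of its exon bases, 695 lie within exons of Gm42688 on the same strand, and featureCounts by default drops reads that fall on more than 1 gene. Whether Mrpl53 was expressed cannot be told from this table.

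Each gene's log2 level was correlated with the mean of all the others over the 8 mice, which share libraries and depth, and the median Pearson's r was 0.52, with 41 of the 77 genes (53.2%) above 0.5. Over all 15472 genes tested, the median r with the mean of the family was 0.027, and 16.8% were above 0.5. The closest to the others was Mrpl51 (r = 0.95) and the farthest Mrps18b (r = -0.79), and 10 genes were below 0. After the group means were taken out the median was 0.32 (0.026 over all genes), so part of the common variation was among mice of the same group. Control 1 was the mouse with the highest value for 27 genes (35.1%, against 19.2% of all genes) and control 65 for 19 (24.7%, against 10.6%). The lowest value lay in an etanercept-treated mouse for 64 of the 77 genes (83.1%, against 42.5% of all genes tested), and in etanercept 17 for 21 of them (27.3%, against 18.3%). None of these differences from all genes was tested.

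Promoter sequences are shown for Mrps11 and Mrpl52, the genes with the lowest log2 fold changes, for Mrpl46 as the neighbour of Mrps11, for Mrps7 as a further small subunit gene with separate groups, and for Mrps18b as the gene that was higher. They are the RefSeq windows of GRCm38.p6 from 250 bases before to 50 bases after the start, 5′ to 3′ on the strand of the gene. Capitals mark the cores of motifs bound by factors known for nuclear genes of mitochondrial proteins, searched on both strands: GCGCATGCG for NRF1, CCGGAAG for ETS factors such as GABPA, and AAGATGGC for YY1. The last letters of the ETS core are the first of the YY1 core, so both can share bases. Mrpl52 is at chr14:54426659-54426958 (plus), Mrps11 at chr7:78782881-78783180 (plus), Mrpl46 at chr7:78783040-78783339 (minus), Mrps7 at chr11:115603890-115604189 (plus) and Mrps18b at chr17:35916391-35916690 (minus).
Mrpl52: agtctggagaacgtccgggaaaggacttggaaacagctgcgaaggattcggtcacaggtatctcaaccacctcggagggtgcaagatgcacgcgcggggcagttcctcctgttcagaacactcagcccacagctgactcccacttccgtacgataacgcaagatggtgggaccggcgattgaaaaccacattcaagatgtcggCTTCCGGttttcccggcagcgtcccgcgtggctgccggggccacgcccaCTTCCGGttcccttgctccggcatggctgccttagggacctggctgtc
Mrps11: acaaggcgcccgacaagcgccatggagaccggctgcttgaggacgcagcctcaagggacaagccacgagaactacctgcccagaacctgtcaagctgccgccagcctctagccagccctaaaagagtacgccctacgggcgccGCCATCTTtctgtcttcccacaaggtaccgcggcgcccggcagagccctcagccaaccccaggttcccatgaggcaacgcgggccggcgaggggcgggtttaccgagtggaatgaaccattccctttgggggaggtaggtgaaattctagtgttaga
Mrpl46: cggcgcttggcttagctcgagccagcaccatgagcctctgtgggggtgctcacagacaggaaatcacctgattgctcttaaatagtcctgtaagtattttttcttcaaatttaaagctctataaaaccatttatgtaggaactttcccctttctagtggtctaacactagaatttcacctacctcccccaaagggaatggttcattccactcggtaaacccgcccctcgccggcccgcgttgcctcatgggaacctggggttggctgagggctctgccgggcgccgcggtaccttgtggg
Mrps7: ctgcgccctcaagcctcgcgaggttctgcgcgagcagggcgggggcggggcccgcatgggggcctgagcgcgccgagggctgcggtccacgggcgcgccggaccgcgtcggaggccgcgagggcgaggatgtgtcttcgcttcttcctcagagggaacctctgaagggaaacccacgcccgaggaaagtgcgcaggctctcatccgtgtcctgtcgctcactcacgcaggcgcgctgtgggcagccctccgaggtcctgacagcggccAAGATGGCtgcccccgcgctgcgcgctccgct
Mrps18b: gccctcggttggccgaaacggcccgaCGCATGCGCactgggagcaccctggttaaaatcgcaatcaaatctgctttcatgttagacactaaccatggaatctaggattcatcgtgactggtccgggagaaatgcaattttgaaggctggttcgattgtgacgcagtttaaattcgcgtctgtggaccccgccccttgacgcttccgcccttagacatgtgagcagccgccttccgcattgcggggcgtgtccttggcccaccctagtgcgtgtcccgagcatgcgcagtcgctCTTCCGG
The Mrpl52 window holds the ETS core 2 times, that of Mrps18b the ETS core and the NRF1 core, and those of Mrps11 and Mrps7 the YY1 core. The windows of Mrps11 and Mrpl46 share 141 bases, and the Mrpl46 window holds none of the 3 cores.

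Over the family, 69 of the 78 genes had 75 windows. The ETS core was in 34.7% of them, against 8.86% of all 32851 windows, the YY1 core in 16.0% against 2.75%, and the NRF1 core in 9.33% against 1.75%. Any of the 3 was in 50.7%, against 12.5% of all windows. Of the 10 nominally lower genes, 8 had a window, and 4 of these held the ETS core, 2 the YY1 core and 0 the NRF1 core. A match is a run of letters, and binding was not measured.

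In the wider mitochondrial translation machinery, median log2 fold changes were nearer to that of all genes, a difference that was not tested. Most of these lists also hold longer genes than the family (median exon length 2533 bases). The median was 2494 bases for proteins with other symbols, 3609 for assembly factors, 3868 for translation factors and 5173.5 for tRNA synthetases. With the exon length trend removed, their median log2 fold changes were -0.031, -0.077, -0.12 and -0.0021, against -0.19 for the family. The 5 mitochondrial ribosomal proteins with other symbols had a median of -0.092, and none was nominally lower or higher in edgeR. Among them were the small subunit proteins Ptcd3 at 0.42 (SE 0.24) and Chchd1 at -0.30 (SE 0.18). Of 25 assembly factors 2 were nominally lower (8%, against 3.63% of all genes tested). They were Rbfa at -0.49 (SE 0.22), which binds the small subunit rRNA, and Mterf4 at -0.67 (SE 0.30), which brings a methyltransferase to the large subunit. Rbfa was not nominally lower with the GC trend removed (-0.32, SE 0.21) or the length trend removed (-0.32, SE 0.20), and of the 20 alternatives Rbfa was nominally lower under 11 and Mterf4 under 12. The median of the 25 was -0.058.

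Of 13 tested translation factors 1 was nominally lower (7.69%, against 3.63% of all genes tested). This was the elongation factor Tsfm at -0.57 (SE 0.23), and Tufm, its partner, was at -0.23 (SE 0.18). Tsfm was nominally lower under 15 of the 20 alternatives, not without control 1 (-0.59), control 69 (-0.43), etanercept 19 (-0.53), etanercept 52 (-0.47) or the 3 mice rich in Sbp (-0.55). The median of the 13 translation factors was -0.14. The 20 aminoacyl-tRNA synthetase and amidotransferase genes of mitochondria had a median of 0.058, with 0 nominally lower or higher. The 11 regulators of mitochondrial biogenesis, among them Gabpa at 0.35 (SE 0.24) and Tfb2m at 0.33 (SE 0.25), had a median of 0.092 and likewise 0 genes in either direction. Against 51% of all genes tested, the share below 0 was 64.0% of the assembly factors, 61.5% of the translation factors and 40.0% of the synthetases.

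The mRNAs that the mitochondrial ribosome translates were mostly above 0. Of the 13 mitochondrially encoded mRNAs, 3 were nominally higher (23.1%, against 2.99% of all genes tested) and 0 lower. Above 0 were 11, with a median of 0.50. The 3 nominally higher were mt-Nd5 at 1.08 (SE 0.34), mt-Nd2 at 0.88 (SE 0.30) and mt-Nd4 at 0.66 (SE 0.29), all subunits of complex I. Several of the 13 had few counts, and their log2 fold changes are uncertain. In control mice mt-Co1 averaged 10498 CPM, but mt-Atp8, mt-Nd4l and mt-Nd3 only 0.46, 1.90 and 2.65 CPM. The means of mt-Atp6, mt-Co2 and mt-Co3 were 39.6, 63.9 and 65.6 CPM, with SEs of 0.55, 0.51 and 0.58 for their log2 fold changes. With the GC trend removed mt-Nd4 was at 0.43 (SE 0.28) and not nominally higher, and it was nominally higher under 8 of the 20 alternatives, against 20 for mt-Nd5 and 19 for mt-Nd2. With the length trend removed the median of the 13 was 0.83. Together the 13 took 1.56% to 3.03% of the counts in control mice and 2.44% to 3.68% in etanercept-treated mice (two-sided exact permutation test, p = 0.0857, n = 4 per group, smallest p possible 0.0286). These groups overlapped.

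The ribosomal proteins of the cytosol were mostly below 0, like those of the mitochondrion. Of 86 tested genes chosen by the symbols Rpl and Rps, 82 were below 0, with a median of -0.43. Nominally lower were 11 (12.8%, against 3.63% of all genes tested). Groups that did not overlap, lower with etanercept, were seen for 3 (3.49%, against 2.53% of all genes tested). The symbols take in Rps19bp1, which binds a ribosomal protein and is not one, and 3 tested genes named as pseudogenes but annotated as protein-coding (Rpl9-ps6, Rpl10-ps3 and Rps12-ps3). Without these, 78 of 82 were below 0 and 11 were nominally lower, with a median of -0.43. Over the 86 genes, mean log2(CPM + 1) was 8.26 to 9.23 in control mice and 8.37 to 8.79 in etanercept-treated mice. Over the reduced set of 82 it was 8.55 to 9.53 and 8.69 to 9.07. In both sets the groups overlapped, control 69 being the lowest of all. In the mitochondrial family, by contrast, control 69 stayed above every etanercept-treated mouse (5.06 against at most 4.97). Whether the families differ was not tested.

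**Figure D4:**
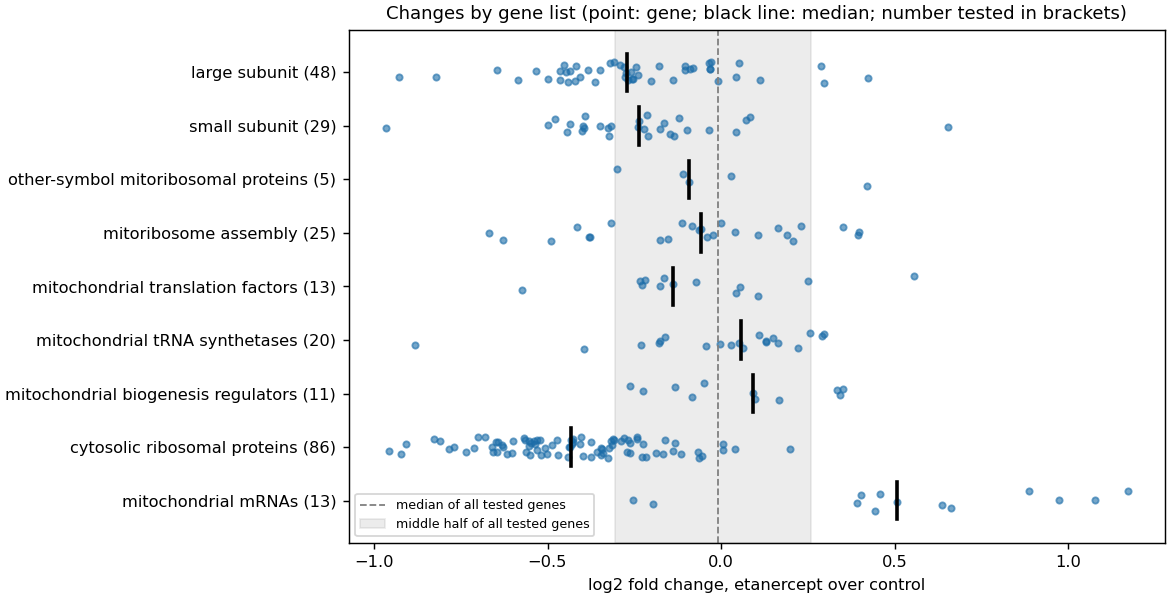
edgeR log2 fold change (horizontal axis) of each gene in 9 lists, with the number tested in brackets, a black line at the median of each list and a grey band from the lower to the upper quartile of all genes tested. The medians of the large (-0.27) and small (-0.24) subunit lie left of 0 but inside the band, that of the cytosolic ribosomal proteins (-0.43) lies left of the band and that of the mitochondrial mRNAs (0.50) right of it.

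Several properties of the samples moved with the groups. Across genes, expression relative to the mean of all mice correlated with exon length at Spearman's rho -0.16 to -0.011 in control mice and 0.064 to 0.15 in etanercept-treated mice, and with GC content at 0.00064 to 0.24 and -0.14 to -0.072. Mitochondrial ribosomal protein genes are short, with a median exon length of 2533 bases against 4180.5 over all genes tested. With the length trend of each mouse removed, their median log2 fold change was -0.19 against -0.027 for all genes, 60 of 77 were below 0 and 11 were nominally lower (3.44% of all genes). With the GC trend removed 70 were below 0 and 15 were nominally lower (3.27% of all genes). The median of the cytosolic ribosomal proteins came to -0.28 without the length trend.

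Markers of other cell types also differed in part. The summed level of 5 smooth muscle genes was 3038 to 6214 CPM in control mice and 5551 to 11060 CPM in etanercept-treated mice, and 3 of the 5 were nominally higher. Over all genes tested, 2.99% were nominally higher and 3.63% nominally lower. Adipocyte genes were at 24.0 to 326 and 20.1 to 29.9 CPM, with 4 of 5 nominally lower, macrophage genes at 153 to 500 and 108 to 177 CPM, with 2 of 4 lower, and T cell genes at 27.7 to 85.8 and 25.1 to 38.1 CPM, with 2 of 4 lower. Basal cell genes were at 77.6 to 233 and 62.4 to 137 CPM, with 1 of 3 lower. Skeletal muscle genes were at 69.1 to 1717 and 689 to 1313 CPM with 1 of 4 tested lower, B cell genes at 43.0 to 215 and 23.1 to 90.3 CPM and endothelial genes at 38.1 to 94.4 and 28.8 to 50.03 CPM with 0 of 3 each. The brown fat markers summed to at most 7.85 and 2.74 CPM, with Ucp1 at 0 in all 8 mice. Every one of these ranges overlapped between the groups, and their part in the levels of the mitochondrial ribosomal protein genes was not tested.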

How the data were processed

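Per the labels, 8 NOD prostates (4 control, 4 etanercept) were sequenced after poly(A) selection with read pairs of 150 nt. The authors aligned these with STAR 2.6.1d and counted them per gene with featureCounts 1.5.0-p3 at default settings, which ignore strand, and they deposited whole-number counts without normalization. The submitters' processing notes also name fastp, DESeq2 1.26.0 and mm10, and the annotation used for counting is not given in the sources used here. Genes were named and located with GENCODE M21 by Ensembl identifier (54495 of 54532 matched, the 37 others holding 0.00429% of the counts).

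Groups and animal numbers came from the sample titles. Counts were tested with edgeR 4.0.16 under R 4.3.3 (TMM factors, filterByExpr with its minimum count of 10, glmQLFTest), adjusted by Benjamini-Hochberg over 15472 genes. Since 0 genes passed an adjusted p of 0.05, genes with an unadjusted p of 0.05 or below were counted as nominally lower or higher. FPKM divides TMM-scaled CPM by the union of exons, and a pseudocount of 1 was used for log2 levels. The code was tested on simulated data. DESeq2 1.42.0, other scalings, filters, a robust fit, lowess removal (span 0.3) of length or GC trends and leaving out each mouse were alternatives. The fit without the 3 mice rich in Sbp and DESeq2 without single mice were added after seeing the data.

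The genes, lists and tests were chosen with earlier results of these data known. Named were the nominally lower or higher genes (12 at most), the 3 highest and 2 lowest by FPKM in each subunit, the 5 largest changes, members of well-known place or role, members failing the filter and, per other list, the 2 genes of smallest p. Mrpl32, Mrpl46, mt-Nd4 and the genes above 0 were named after their values were seen. Replicates are separate animals. Counts hold PCR duplicates, so floors cover counting error only. 1 gene of the luminal marker list is not reported here.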

Additional observations from a re-analysis of the deposited data

Results flagged for a closer look

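In 32 mitochondrial ribosomal protein genes named above, in mt-Nd4 and in the family's mean level, share of counts and large minus small difference, 72 groups of 4 mice were checked for a mouse far from the other 3, and 6 had one, where chance gives about 1 in 20. In Mrpl27 control 3 was low, at 31.1 CPM against 40.2 to 41.7 CPM in the other control mice. Control 65 was high in Mrpl28, at 65.4 CPM against 47.5 to 48.1 CPM, and low in Mrpl4, at 54.9 CPM against 61.4 to 62.4 CPM. In Mrpl45 etanercept 17 was high, at 47.4 CPM against 26.9 to 30.0 CPM. Control 69 was low in Mrpl47, at 6.42 CPM against 12.1 to 12.9 CPM. In Mrpl58 control 1 was high, at 63.6 CPM against 43.3 to 46.5 CPM. The cause was not tested in any of them.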

How the results depend on the processing

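No paired analysis was possible because the groups share no animal number. DESeq2 called 21 genes in all and 1 of the mitochondrial ribosomal protein genes, Mrpl52 (log2 fold change -0.94), where edgeR called 0 under every setting tried. Without control 69 DESeq2 called 253 genes in all and 2 of the family, Mrpl52 and Mrps11, and without any other single mouse 9 to 23 genes and 0 of the family. The number of these genes nominally lower was 10, and it was 18 with library size alone (5.41% of all genes, against 3.63%) and 8 to 17 when 1 mouse was left out (2.49% to 5.98% of all genes), with 17 without control 69. The number higher was 0, and it was 1 without the GC trend, 1 without the length trend and 0 to 1 when 1 mouse was left out (1 without control 3). Groups did not overlap, in either direction, for 8 genes, against 6 without the GC trend, 7 without the length trend, 13 with library size alone, 10 to 19 with 1 mouse left out (17 without control 3, 19 without control 69) and 34 without the 3 mice rich in Sbp. Fewer mice make separation easier. Lower without overlap were 7 of these genes (2.53% of all genes), 5 without the GC trend (2.38%), 5 without the length trend (2.62%), 12 with library size alone (3.32%), 9 to 18 with 1 mouse left out (3.69% to 6.90%) and 31 without the 3 mice rich in Sbp (14.1%). The median of the large subunit was -0.36 with library size alone, and with 1 mouse left out it was -0.32 to -0.25, that of the small subunit -0.29 to -0.20. Some genes near 0 changed sign. Mrpl34 was at 0.061 without the GC trend and 0.21 without the length trend, and at -0.27 to 0.033 with 1 mouse left out (above 0 without control 65 and, at 0.0052, without etanercept 52). Mrps18c was at -0.074 without the GC trend, -0.034 with library size alone and -0.13 to 0.14 with 1 mouse left out (below 0 without control 65 and, at -0.063, without etanercept 17). Without the length trend Mrpl10 was at 0.021, Mrpl44 at 0.053 and Mrps28 at 0.10. Mrpl44 was at 0.016 without the 3 mice rich in Sbp and at -0.15 to 0.024 with 1 mouse left out (above 0 without etanercept 50), and Mrps22 at -0.13 to 0.074 (above 0 without etanercept 17 and, at 0.038, without control 69). The cause was not tested. For the mitochondrial ribosomal protein genes named here, 15 of 640 alternative values changed sign. With 4 mice per group and no gene past the adjusted threshold in edgeR, the counts at an unadjusted p are descriptions.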
